A study of Drosophila melanogaster with 7 samples.

Results

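Cell cycle and DNA replication genes were followed in the larval central nervous system of Drosophila melanogaster after knockdown of ISWI with the elav-GAL4 driver. The set was a list of 37 genes that act in cell cycle control, DNA replication, mitosis and chromosome condensation. It was chosen with earlier results of these data known. A gene was included when its symbol had a row in the authors' deposited table, which holds 2366 genes. Of the 37 genes, 11 had a row and 26 had none. The authors' deposited table gives 10 of the 11 a negative log2 fold change, meaning less RNA with the knockdown, and 1 (stg) a positive one. fzy and Top2 were the 2 genes that passed an adjusted p of 0.05 according to the authors' deposited table, and both fell.

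Cells that divide express these genes in waves. Replication origins are loaded with the MCM helicase before S phase, cyclins and their kinases drive entry into S phase and mitosis, and the anaphase-promoting complex (APC/C) then marks mitotic cyclins for destruction so that the cell can divide. In the third-instar nervous system the dividing cells are mainly neuroblasts (the neural stem cells), their ganglion mother cell daughters, the optic lobe epithelium and some glia, while neurons have left the cycle. ISWI is the ATPase of several nucleosome remodelling complexes.

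The control larvae carried the driver alone, given in the labels as elav-GAL4; +, and the other larvae carried elav-GAL4>UAS-ISWI RNAi, in which the same driver expresses a hairpin against Iswi. The driver uses regulatory DNA of elav, a gene of neurons, and larvae of both groups carried it. There were 3 control and 4 knockdown libraries, each pooled from 40 brains (central brain and ventral nerve cord) at 4 days after egg lay at 25 °C. The header of the authors' deposited table names the control attp2, while the labels name the driver alone. The labels do not give the sex of the larvae, and each group is 1 genotype, so effects of the hairpin and of the stocks cannot be told apart.

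The authors' deposited table holds 1 mean normalised count over all libraries and 1 log2 fold change per gene, with its p-value. No values of single libraries were used, so depth per library is unknown and replicate spread is seen only in the p-values. Each gene in the authors' deposited table has a p under 0.1. The adjusted p-values there imply 10775 tests, so that 8463 tested genes have no row in the authors' deposited table. For Iswi itself the authors' deposited table gives a log2 fold change of -2.03 (95% interval -2.15 to -1.90), which is 24.6% of the control level. This is a level in pooled brains, so the cells in which Iswi fell are not known here.

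Among the 37 genes, 2 were called in the authors' deposited table, or 5.41%, against 4.65% of all tested genes called in either direction. Both were lower, and 2.59% of all tested genes were called lower in the authors' deposited table. The share called was thus near the background. A row at p under 0.1 was found for 29.7% of the 37 genes and for 21.5% of all tested genes in the authors' deposited table. Rows with a negative fold change made up 11.2% of all tested genes there. The list was chosen with earlier results of these data known, so these shares are description only.

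fzy (fizzy, the Drosophila Cdc20, which activates the APC/C for the start of anaphase) had the smallest p of the set. The authors' deposited table gives it a mean normalised count of 2046 and a log2 fold change of -0.27, which is 82.9% of the control level. Its 95% interval ran from -0.38 to -0.15, and its DESeq2 adjusted p in the authors' deposited table was 0.00026. fzy (FBgn0001086) lies on the plus strand of chromosome 2L from 16310956 to 16313097 in build BDGP6. Its 3' end overlaps cact, the Drosophila I-kappa-B, on the opposite strand by 62 bases, and the authors' deposited table lists cact at -0.14 on the log2 scale (adjusted p 0.307). Whether reads were counted by strand is not stated in the sources used here, so the reads of that short overlap are uncertain.

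Top2 (topoisomerase II, which untangles sister chromatids and is a major protein of mitotic chromosomes) was the other gene that fell. The authors' deposited table gives it a log2 fold change of -0.21, which is 86.6% of the control level. The 95% interval ran from -0.32 to -0.10, and the DESeq2 adjusted p in the authors' deposited table was 0.00683. It had the highest mean normalised count of the listed members, 13304. Top2 (FBgn0284220) lies on the minus strand of chromosome 2L from 19447365 to 19453490 in build BDGP6 and overlaps no other gene of the annotation. The condensin subunits SMC2, glu (SMC4) and Cap-G, which act beside topoisomerase II in packing chromosomes, had no row.

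**Figure D1:**
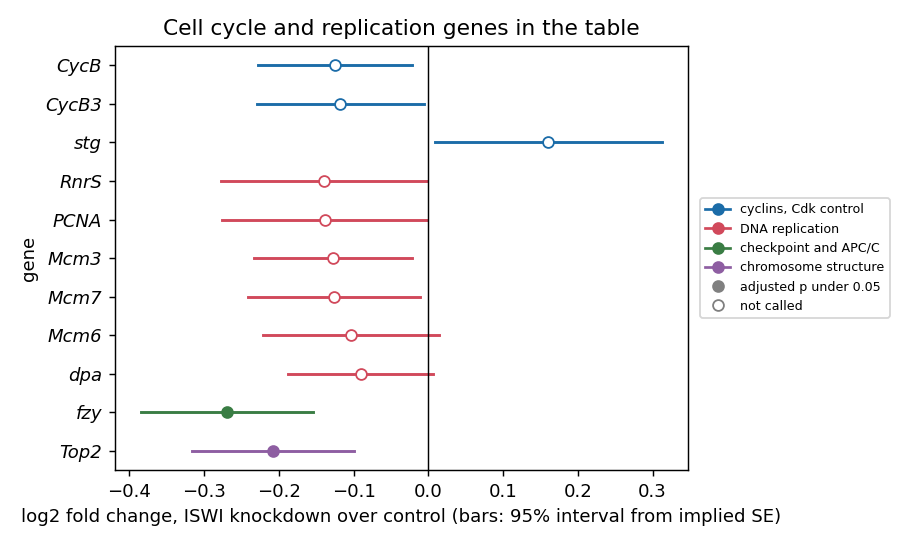
Log2 fold change, knockdown over control (x axis), for the 11 genes of the 37-gene list with a row in the authors' deposited table, grouped by role (colour). Points are the authors' fold changes, bars the 95% interval from the implied standard error, and filled points passed an adjusted p of 0.05. fzy and Top2 are the filled points, at -0.27 and -0.21, and stg alone lies to the right of 0.

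DNA replication held 6 of the 11 listed genes, and the authors' deposited table gives all 6 a negative log2 fold change, with 0 called. These 6 are 46.2% of the 13 replication members, while 21.5% of all tested genes had a row and 4.65% were called. Among 393 other listed genes with counts in the members' range, 275 were negative. The replicative helicase MCM2-7, the ring that unwinds DNA at the fork, had 4 of its 6 subunits listed. The authors' deposited table gives a log2 fold change of -0.13 for both Mcm3 and Mcm7, of -0.10 for Mcm6 and of -0.09 for dpa (the Drosophila Mcm4). As levels these lie between 91.6% and 93.9% of control. The 95% intervals of Mcm6 (-0.22 to 0.01) and dpa (-0.19 to 0.01) include 0, while those of Mcm3 (-0.23 to -0.02) and Mcm7 (-0.24 to -0.01) do not. Since the intervals were derived from p, this only restates which p-values were under 0.05 and does not separate the 4 genes. In the authors' deposited table the adjusted p was 0.198 for Mcm3, 0.267 for Mcm7, 0.395 for dpa and 0.432 for Mcm6. Mcm2 and Mcm5 had no row. The 4 listed subunits thus had small negative values whose intervals overlap, and none passed the threshold over all genes. Mcm7 shares 2205 bases with an antisense RNA and Mcm3 shares 64 bases with CG3309 on the opposite strand, neither of which has a row.

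PCNA, the sliding clamp that holds DNA polymerase on its template, was listed at -0.14 on the log2 scale (adjusted p 0.332) in the authors' deposited table. RnrS, the small subunit of ribonucleotide reductase, which makes deoxynucleotides, was also listed at -0.14 (adjusted p 0.329) in the authors' deposited table. Both stood at 90.8% of the control level, and the upper ends of both 95% intervals lay just under 0. RnrL, the large subunit of the same enzyme, had no row. The origin proteins Orc1 and Orc2, the helicase loading factor dup (Drosophila Cdt1) and its inhibitor geminin had no row either.

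Among cyclins and their regulators 3 of 10 genes were listed, or 30%, and 0 were called. Of all tested genes 21.5% had a row and 4.65% were called, so 0 calls among 10 genes is near the background. CycB and CycB3, the B-type cyclins of mitosis, were each listed at -0.12 as a log2 fold change in the authors' deposited table (adjusted p 0.191 and 0.305). Their 95% intervals ran from -0.23 to -0.02 and from -0.23 to -0.01. stg (string, the Cdc25 phosphatase that triggers entry into mitosis by activating Cdk1) was the 1 listed gene with a positive value. The authors' deposited table gives it a log2 fold change of 0.16 (adjusted p 0.297), and its 95% interval ran from 0.01 to 0.31. stg lies on chromosome 3R from 29251826 to 29255800 in build BDGP6. The phosphatase of mitotic entry and the mitotic cyclins thus had opposite signs, but none of the 3 passed the threshold and the difference between them was not tested.

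The other members of this role had no row, namely CycA, which acts in S phase and mitosis, the G1 cyclins CycD and CycE, the kinases Cdk1 and Cdk2, their inhibitor dap (dacapo) and the transcription factor E2f1. Nor had the mitotic kinases polo, aurA and aurB, or the spindle checkpoint protein BubR1. The same was true of all 5 spindle and cytokinesis members. Those are Incenp of the chromosomal passenger complex, the kinesins ncd and Klp61F, and pav and tum, which form centralspindlin. A gene with no row had a p of at least 0.1 or was not tested, and these cannot be told apart here. All 37 symbols were found in the reference names, and 0 of the 26 genes with no row were listed under another symbol in the authors' deposited table.

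What a missing row can show depends on precision. The listed members had mean normalised counts between 2046 and 13304 in the authors' deposited table. At those counts the median implied standard error of listed genes was 0.06, so a gene with that error needed a log2 fold change of 0.10 for a row and 0.19 for a call. The 9 listed members that were not called had log2 fold changes between -0.14 and 0.16 in the authors' deposited table, all smaller than that size of a call. The mean counts of the absent members are not known here, so no limit can be given for them one by one.

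Per length, PCNA was the most abundant listed member, with a mean normalised count of 4598 per kilobase, followed by Top2 with 2538. RnrS (1803) and Mcm7 (1725) came next, then CycB (1323) and Mcm6 (1182) in mean normalised count per kilobase. The lowest 5 lay close together, from 973 for stg to 1042 for dpa, with fzy at 1025, CycB3 at 1010 and Mcm3 at 1001 per kilobase. These levels are over all 7 libraries with no spread given, so neighbours in this order cannot be separated. Of the called genes, Top2 stood near the top of this order and fzy near its lower end.

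Most other listed genes with like counts were negative too. Among 393 other tested genes of the authors' deposited table with a mean normalised count in the members' range, 275 were negative and 118 positive. Of the 11 listed members 10, or 90.9%, were negative in the authors' deposited table, against 70% of those 393 genes. The difference between these shares was not tested. The median log2 fold change in the authors' deposited table was -0.13 for the listed members and also -0.13 for those 393 genes. Over all 2312 tested genes with a row in the authors' deposited table, 52.2% were negative and the median was -0.11. To 2 decimals, the median of the members was that of other listed genes with like counts. Both sets hold only genes with p under 0.1. At these counts a gene with the median error needed a log2 fold change of 0.10 in size for a row. That limit bounds the size of both medians, so no conclusion is drawn from their match.

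**Figure D2:**
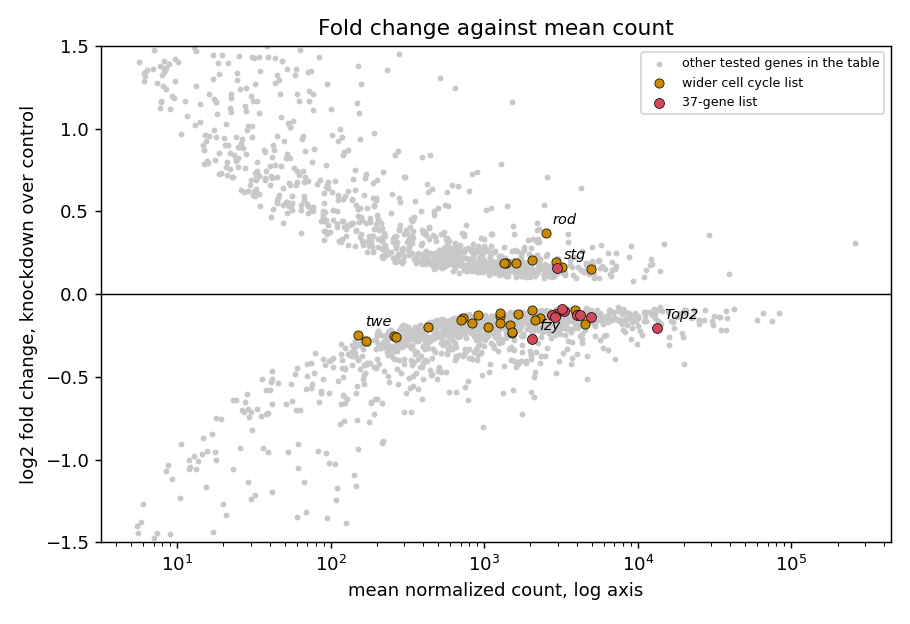
Log2 fold change of knockdown over control (y axis) against mean normalised count (x axis, log scale) for tested genes of the authors' deposited table, with the 37-gene list in red and the wider cell cycle list in orange. The empty wedge around 0 comes from the table's limit of p under 0.1, 223 genes beyond 1.5 in either direction are not drawn, and the red points lie below 0 at counts of 2046 and above, apart from stg.

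A wider list of 155 other cell cycle genes, matched by symbol, gave 30 with a row in the authors' deposited table, 22 negative and 8 positive. Of these 1 was called lower and 1 higher, so 1.29% of the list was called, against the 4.65% of all tested genes. RPA2, a subunit of the replication protein A complex that coats single-stranded DNA, was the lower one, and the authors' deposited table gives it a log2 fold change of -0.23 (95% interval -0.38 to -0.09, adjusted p 0.035). rod (rough deal, of the RZZ complex that recruits dynein and checkpoint proteins to kinetochores) was the higher one. The authors' deposited table gives it a log2 fold change of 0.37, which is 129% of the control level. Its 95% interval ran from 0.24 to 0.50, and its DESeq2 adjusted p in the authors' deposited table was 5.3e-06. The background for calls in that direction was 2.06% of all tested genes. rod lies on chromosome 3R from 31580951 to 31588244 in build BDGP6 and overlaps no other gene there.

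Of the 38 replication genes of the wider list 7 were listed by symbol, or 18.4%, and of both lists together 13 of 51, or 25.5%. Both shares are too low, since they leave out 3 replication genes that have a row under another symbol, given below. They are thus not set against the background. Of all tested genes, which need no match by symbol, 21.5% had a row. Among 465 listed genes outside both lists, under 3000 bases and with a mean normalised count of at least 1000, 376 were negative. All 7 replication genes listed by symbol from the wider list were negative in the authors' deposited table, as were the 6 of the 37-gene list. Beside RPA2 they were CDC45L, part of the active helicase, at -0.20, and dUTPase, which keeps uracil out of DNA, at -0.18 as a log2 fold change in the authors' deposited table. RfC4 of the clamp loader stood at -0.13, Mcm10 at -0.15, dnk (a deoxyribonucleoside kinase) at -0.11 and RpA-70 at -0.10 as log2 fold changes in the authors' deposited table. These 6 were not called, with adjusted p between 0.157 and 0.426. Matching by gene ID added PolA2, a regulatory subunit of DNA polymerase alpha, at -0.22, and 2 positive genes, PolA1, the catalytic subunit of that polymerase, at 0.12 and DNAlig1 (DNA ligase I) at 0.14 as a log2 fold change in the authors' deposited table. None of these 3 was called, with adjusted p of 0.293, 0.388 and 0.405. The origin recognition complex had 0 of 6 and the GINS complex 0 of 4 genes with a row.

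Of the 25 cell cycle regulators of the wider list 5 were listed, or 20%, which is near the 21.5% of all tested genes with a row. These 5 were negative and 0 were called. Cks30A, a small partner of Cdk1, and Rca1, an inhibitor of the APC/C, were both listed at -0.18 as a log2 fold change in the authors' deposited table (adjusted p 0.169 and 0.312). lin-52 of the Myb-MuvB complex was listed at -0.20 (adjusted p 0.339) in the authors' deposited table. twe, the Cdc25 of meiosis, and the checkpoint kinase lok (Chk2) were at -0.25 and -0.13 in the authors' deposited table. Of the 23 checkpoint and APC/C genes of the wider list 4 were listed, or 17.4%, against the 21.5% of all tested genes. Among them the APC/C subunit APC4 stood at -0.15 and the ubiquitin-conjugating enzyme vih at -0.14 in the authors' deposited table. Neither was called, and the interval of APC4 (-0.32 to 0.01) includes 0, while that of vih (-0.28 to -0.01) does not. The APC/C genes shtd, Cdc16, Cdc23, Cdc27, ida, fzr, mr, lmgA, APC7 and APC10 had no row. Of 15 centrosome genes 2 were listed, or 13.3%, namely ana2 at -0.26 and Plp at -0.16 in the authors' deposited table, neither called.

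Kinetochore, spindle and chromosome genes went both ways. Zw10, the partner of rod in the RZZ complex, was listed at -0.17 on the log2 scale (adjusted p 0.147) in the authors' deposited table. The 2 listed genes of that complex thus had opposite signs and intervals that do not overlap (-0.31 to -0.04 for Zw10 against 0.24 to 0.50 for rod), and the difference itself was not tested. The kinetochore genes cmet (a CENP-E kinesin) and Spc105R were listed at 0.21 and 0.19, while Mis12 and the centromeric histone cid were at -0.25 and -0.28, in the authors' deposited table. SMC1 of cohesin, san (an acetyltransferase needed for cohesion) and Cap-H2 of condensin II were each at 0.19 in the authors' deposited table, and barr of condensin I was at -0.09. For spindle and cytokinesis genes, feo (the Drosophila PRC1) stood at -0.23, borr (borealin) at -0.12, mud (the Drosophila NuMA) at 0.16 and sti (citron kinase) at 0.15 in the authors' deposited table. Apart from rod, 0 of the genes in this paragraph passed an adjusted p of 0.05, the closest being SMC1 with 0.0768, feo with 0.0853 and cmet with 0.0868 in the authors' deposited table.

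**Figure D3:**
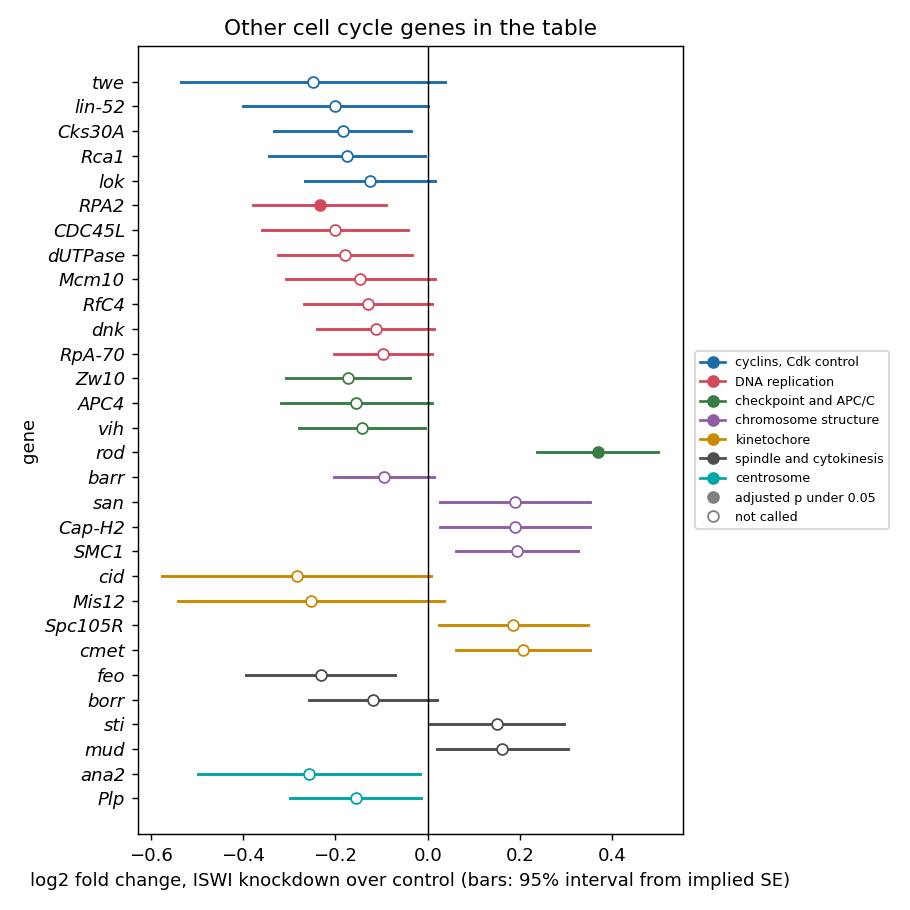
Log2 fold change of knockdown over control (x axis) for the 30 genes of the wider cell cycle list with a row under their symbol in the authors' deposited table, grouped by role (colour), with 95% intervals from the implied standard error. Filled points passed an adjusted p of 0.05, namely RPA2 at -0.23 and rod at 0.37, and the replication genes shown lie to the left of 0.

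The sign of the listed cell cycle genes went with gene length, a pattern looked for after the values were seen. The length is the 1 value per gene that the authors' deposited table gives, also for genes with several transcripts. Over the 41 listed genes of both lists, the 9 positive ones had a median length of 6084 bases and the 32 negative ones of 2174 bases. Among the 7 genes of 5000 bases or more, 5 were positive in the authors' deposited table, namely rod, cmet, Spc105R, mud and sti. The exceptions were Top2 (5242 bases) and Plp (10794 bases). Of the 29 listed genes under 3000 bases, 1 was positive, san with 808 bases. The Spearman rho between length and log2 fold change was 0.55 over these 41 genes, which come from 1 comparison and are not independent replicates. With the 4 genes matched by ID added (those 3 and the septin gene Sep2), the medians were 4624 and 2100 bases and the rho 0.56, and DNAlig1 (2386 bases) was a further positive gene under 3000 bases. The listed replication members were between 1070 (PCNA) and 3071 (dpa) bases long.

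Other genes were set beside them at like counts and over all counts. With a mean normalised count of at least 1000, 32 of the 41 cell cycle genes were left, and their rho was 0.51. Of 803 genes outside both lists with that count in the authors' deposited table, 18.1% were positive under 1500 bases and 72.8% at 5000 bases or more. The shares in between were 19.6% from 1500 to 3000 bases and 40.3% from 3000 to 5000 bases. Over those 803 genes the rho was 0.37. Over all 2312 tested genes with a row, at any count, it was 0.08, with 45.1% positive under 1500 bases, 38.6% from 1500 to 3000, 52.0% from 3000 to 5000 and 79.5% at 5000 bases or more in the authors' deposited table. The larger share of positive genes at 5000 bases or more was thus seen in each of these sets, while the low share under 1500 bases was seen at high counts and not over all 2312 genes. The differences between these sets were not tested. The part of gene length in the values of the cell cycle genes was not tested.

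**Figure D4:**
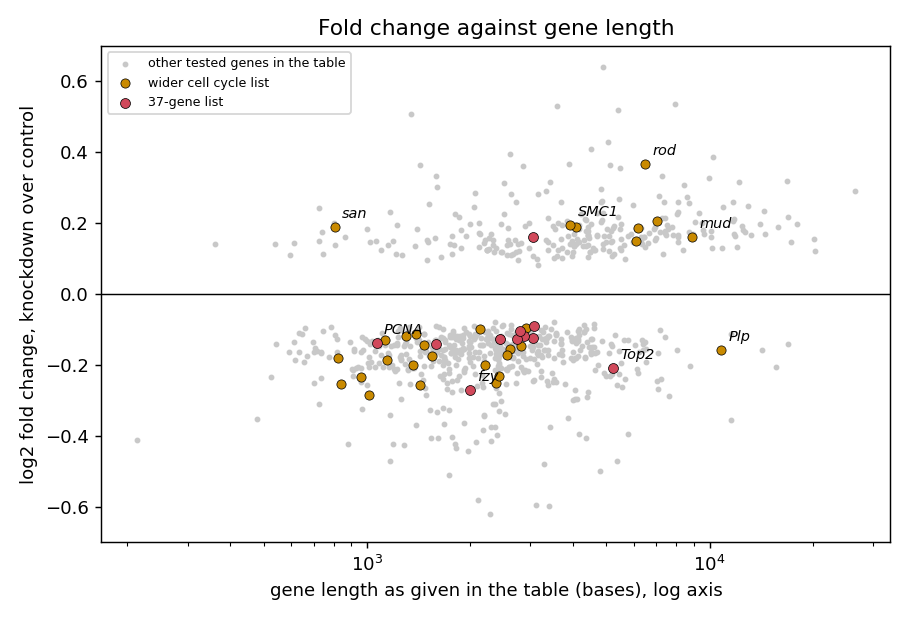
Log2 fold change of knockdown over control (y axis) against gene length in bases (x axis, log scale), with tested genes of the authors' deposited table with a mean normalised count of at least 1000 in grey, the 37-gene list in red and the wider list, at any count, in orange. Most points over 5000 bases lie above 0 and most under 3000 bases below it, Top2 and Plp are long genes below 0, and 7 grey genes beyond 0.7 are not drawn.

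Markers of cell types in the samples were read beside these values. Of 9 neuroblast markers 2 were listed, or 22.2%, which is near the 21.5% of all tested genes with a row, and both were negative in the authors' deposited table. The proneural gene l(1)sc was called lower, at -0.49 on the log2 scale (adjusted p 0.00884), and dpn (deadpan, a transcription factor of neuroblasts) was listed at -0.19 (adjusted p 0.117), in the authors' deposited table. The neuroblast genes mira, wor, ase, insc, pros, brat and grh had no row, and neither had any of 9 neuronal or 7 glial markers. In tissue pools, fewer dividing cells and less RNA per dividing cell cannot be told apart. Blood cells also divide, and all 6 hemocyte markers (Hml, NimC1, Pxn, srp, He and eater) were listed with positive log2 fold changes between 0.96 and 1.54 in the authors' deposited table, of which NimC1 and Pxn were called. As shares of each marker list, 11.1% of neuroblast, 33.3% of hemocyte, 50% of muscle and 12.5% of disc markers were called in either direction, against 4.65% of all tested genes, and these are 1 to 3 genes per list. Of 6 muscle markers 5 were listed and positive, with bt, TpnC47D and Unc-89 called, while up and Mhc stood at 0.58 and 0.71 in the authors' deposited table. Of 8 eye and imaginal disc markers gl was called higher at 0.94, and so and ey stood at 0.35 and -0.17, in the authors' deposited table. The disc markers eya, dac, vg, nub and ap had no row, nor had the muscle marker Mlc1. Rows were found for 100% of hemocyte, 83.3% of muscle and 37.5% of disc markers, against 21.5% of all tested genes. The part of these cell types in the cell cycle values was not tested, and marker levels per group were not used here.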

How the data were processed

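RNA of 7 libraries was made into directional libraries and sequenced as single reads, per the labels' protocols. The submitters' processing notes name STAR 2.5.0b, DESeq2 and build BDGP6; read assignment to genes is not stated in the sources used here. Per the file headers, the authors deposited for each gene a base mean (a signal, the mean normalised count), a log2 fold change, a p-value, an adjusted p-value and a gene length in bases.

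A gene was called when its deposited adjusted p was under 0.05. Standard errors came from the fold change and p, read as a Wald test, and gave 95% intervals. Whether an interval includes 0 thus only restates p against 0.05. The intervals take no account of the limit of p under 0.1 for a row. The number of tests was derived from the ranks of p, leaving out 54 genes with an adjusted p of 1. Both steps were tested on simulated data built with the same Wald formula. Such data cannot show whether the deposited fold changes and p-values follow it. Nothing was refitted, since only the comparison was used. Python 3.11.15, pandas 2.3.3 and scipy 1.17.1 were used.

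The members and lists were chosen with earlier results of these data known, and the complexes and length classes after values were seen. Named were all listed members, called genes of the wider list with up to 3 more per role by p, and listed markers; twe, lok, Mcm10, RpA-70, dnk, Mis12, borr, barr and genes matched by ID were added after their values were seen. Of 155 wider genes 152 matched the reference names. Promoter motifs were planned and not analysed here, for want of sequence.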

Additional observations from a re-analysis of the deposited data

How the results depend on the processing

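The count of called members stayed at 2 with an adjusted p under 0.1 or under 0.01, with a mean count of at least 50, with the adjustment taken over all genes tested or left out, and with matching by gene ID or synonym. At an unadjusted p under 0.05 it was 9. The limit of 50 could remove no listed member, since their lowest mean count was 2046, and matching added 0 members. In the wider list the lowest mean count of a listed gene was 151, so that limit could remove none there either. For the wider list the count of 2 was 5 at an adjusted p under 0.1, 1 (rod) under 0.01 and 18 at an unadjusted p under 0.05, and 2 under the other settings; these thresholds admit more or fewer genes by construction. The 11 listed members became 9 at an unadjusted p under 0.05. Their median log2 fold change of -0.13 lay between -0.13 and -0.12 under the alternatives tried, including one without fzy and Top2 chosen after seeing the data. No paired analysis was possible because the table holds 1 comparison and no values per replicate, and leaving out each replicate in turn was not run for the same reason. Promoter motifs were not run.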

Other observations

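The septin gene Sep2, which acts in cytokinesis, was found by gene ID alone. Its symbol stands as a date in the authors' deposited table, as spreadsheets convert it, and the log2 fold change listed there is -0.13 (adjusted p 0.123).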
